A study of Mus musculus with 7 samples.

Results

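Heat shock proteins and chaperones were examined in liver neutrophils through 9 genes, chosen by their symbols from the 16047 genes of the deposited table. These were Hspa1a, Hspa1b, Hspa8, Hsph1, Dnajb1, Hsp90aa1, Hsp90ab1, Hspd1 and Hspe1, and all 9 were among the 9594 genes tested, those whose mean over the libraries reached 1 RPKM. RPKM is the number of reads of a gene scaled to the length of its transcript and to the number of reads mapped in the library. Neutrophils were sorted from livers of male C57BL/6 mice, aged 8 to 12 weeks, at 24 h after acetaminophen-induced liver injury (AILI). All mice were fasted overnight and received 300 mg/kg of acetaminophen (APAP) i.p., so that the controls carried the injury too and no uninjured liver was included. From 12 h before APAP and every 24 h, 3 mice (replicates 2 to 4) received 400 µL of medium conditioned with MC-21 at 29 µg/mL, an antibody to CCR2 that depletes Ly6Chi monocytes, and 4 mice (replicates 5 to 8) received PBS. Each library came from the liver of 1 mouse. Livers were digested with collagenase for 45 min at 37 °C, 50000 cells per liver were sorted as CD11b+ Ly6Clo CX3CR1-GFP- Ly6G+, and 3′ RNA-seq libraries were made from them. The gate uses a GFP reporter at the Cx3cr1 locus, which the strain label of the libraries does not name.

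Chaperones bind unfolded or partly folded proteins and help them to fold, to assemble or to be degraded. HSP70 proteins hold short exposed stretches of a client in a cycle of ATP hydrolysis that J-domain proteins start and exchange factors such as HSP110 reset, and HSP90 acts later, on clients such as kinases and steroid receptors. After heat or another stress on proteins, the transcription factor HSF1 binds heat shock elements, which are inverted repeats of GAA, and raises the transcription of the inducible members, whereas the constitutive members are transcribed at high levels in unstressed cells.

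Hspa1a (chr17:35106144-35109069, minus strand of mm9) and Hspa1b (chr17:35093381-35096183, minus strand) lie 9960 bases apart. Their promoters are shown because the pair varied together between mice and heat shock elements are what HSF1 binds. Whether HSF1 had a part in that variation was not tested. Both stretches are the 250 bases before the RefSeq start (RefSeq table of build GRCm38.p6), located by their letters in mm9 at chr17:35109102-35109351 and chr17:35096184-35096433, and are written 5′ to 3′ on the minus strand. Capitals mark the motif GAANNTTC, the core of a heat shock element, which starts 104 bases before the start in both.
Hspa1a: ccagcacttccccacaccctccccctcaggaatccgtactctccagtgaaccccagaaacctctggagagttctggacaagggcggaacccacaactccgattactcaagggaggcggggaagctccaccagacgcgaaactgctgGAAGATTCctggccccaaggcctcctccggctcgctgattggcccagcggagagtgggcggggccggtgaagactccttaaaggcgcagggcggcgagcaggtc
Hspa1b: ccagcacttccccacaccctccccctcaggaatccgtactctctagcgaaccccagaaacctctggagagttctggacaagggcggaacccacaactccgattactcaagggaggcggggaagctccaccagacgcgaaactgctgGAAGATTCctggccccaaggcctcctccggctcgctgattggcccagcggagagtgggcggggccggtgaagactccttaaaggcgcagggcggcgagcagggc
The 2 stretches were identical at 247 of 250 bases, and the motif is the same in both. No annotated exon overlaps either of them.

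The mitochondrial pair is arranged head to head. Hspd1 (chr1:55134679-55145087, minus strand) and Hspe1 (chr1:55144976-55148151, plus strand) start from neighbouring positions, with 107 bases between the starts of transcripts Hspd1-001 and Hspe1-001. In front of Hspe1 stands a run of alternating repeats at chr1:55144897-55144926 of mm9, inside an exon of the alternative transcript Hspd1-002, shown on the plus strand with the run in capitals.
Hspd1 and Hspe1: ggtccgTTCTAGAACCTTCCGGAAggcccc
It holds TTCNNGAA at 89 and 79 bases before the RefSeq start of Hspe1 and GAANNTTC at 84 bases, which overlap each other, and the same letters lie 144, 139 and 134 bases before a start of Hspd1. Hsph1 (chr5:150416862-150438951, minus strand) has TTCNNGAA once, 33 or 54 bases before its RefSeq starts, in an exon of the transcript Hsph1-005. The stretch shown lies at chr5:150438926-150438955 on the minus strand.
Hsph1: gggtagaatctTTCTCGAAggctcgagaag
The windows of Dnajb1 (chr8:86132074-86135801, plus strand) hold neither motif. Of these windows, that at chr8:86132197-86132446 lies within the gene and overlaps an exon of the transcript Dnajb1-201. Only that at chr8:86131824-86132073 lies before the annotated start of the gene. GAANNTTC and TTCNNGAA each read the same on both strands. Of all 32851 RefSeq promoter windows of 250 bases, 6.69% hold GAANNTTC, 7.17% hold TTCNNGAA, 12.8% hold either, and 0.466% hold 3 alternating units (GAANNTTCNNGAA or TTCNNGAANNTTC), as the Hspd1 and Hspe1 run does. A match of letters is a description of these windows and says nothing of binding. Promoter windows were found for 6 of the 9 genes, without Hspa8 (chr9:40609067-40613283, plus strand), Hsp90aa1 (chr12:111928815-111940938, minus strand) and Hsp90ab1 (chr17:45704724-45710220, minus strand).

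The 9 genes had a summed level of 1029 to 1433 RPKM in PBS neutrophils and 1213 to 1344 RPKM in MC-21 neutrophils. Hspa8, the constitutive HSC70, had the highest level of the 9 and made up 52.0% of this sum in PBS replicate 6, the lowest share, and 65.2% in MC-21 replicate 4, the highest. Ordered by their mean over the 7 libraries, Hspa8 was followed by Hsp90ab1, Hspe1, Hspd1, Hspa1a, Hspa1b, Dnajb1, Hsp90aa1 and Hsph1. The order of Hspa8, Hsp90ab1, Hspe1 and Hspd1 was the same in 7 of 7 libraries. Hspd1 was above Hspa1a, and Hspa1a above Hspa1b, in 6 of 7 libraries. Dnajb1 was above Hsp90aa1 in 7 of 7. Hspa1b was above Dnajb1 in 3 of 7 and Hsp90aa1 above Hsph1 in 4 of 7, so that these neighbours did not differ beyond their spread. RPKM divides by transcript length although reads of 3′ libraries come from the transcript's end. Multiplied by transcript length, the levels kept 7 of the 9 places and Hsp90aa1 and Hsph1 changed places.

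**Figure D1:**
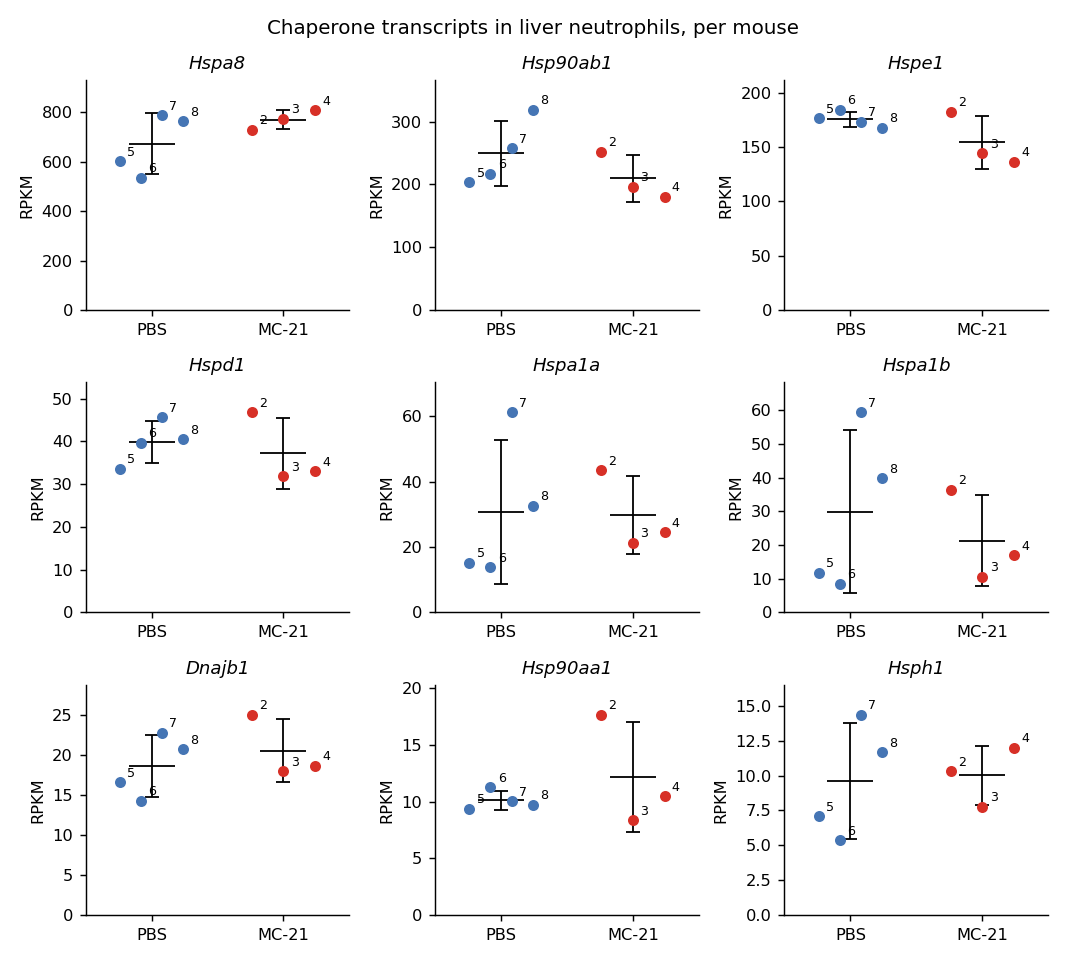
Level of each of the 9 genes in RPKM (vertical axes from 0) in PBS (blue) and MC-21 (red) neutrophils. Each point is the library of 1 mouse with its replicate number, and black bars give the mean ± SD (n = 4 and n = 3). The 2 groups overlap in every panel, and the points of Hspa1a and Hspa1b lie far apart within PBS.

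Hspa1a and Hspa1b encode the stress-inducible HSP70, which most cells hold at low levels until proteins unfold. Hspa1a was at 15.2, 13.8, 61.2 and 32.7 RPKM in PBS replicates 5 to 8 and at 43.4, 21.3 and 24.5 RPKM in MC-21 replicates 2 to 4. Hspa1b was at 11.8, 8.55, 59.4 and 39.9 RPKM in PBS neutrophils and at 36.4, 10.6 and 16.9 RPKM in MC-21 neutrophils, in the same order of replicates. Both genes were highest in PBS replicate 7 and lowest in PBS replicate 6, and the values of MC-21 neutrophils lay within the range of PBS neutrophils. The highest library exceeded the lowest 4.42-fold for Hspa1a and 6.94-fold for Hspa1b. For Hspa1b, 8.55 RPKM in PBS replicate 6 has an exact 95% Poisson interval of 6.79 to 10.7 RPKM and 59.4 RPKM in PBS replicate 7 one of 53.9 to 65.1 RPKM, from about 80 and 442 reads. These intervals cover counting error only, and the distance between these mice was larger.

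The spread of this pair was also wide against other genes. The SD between libraries within the groups was 1.13 on the log2(RPKM + 1) scale for Hspa1b and 0.82 for Hspa1a. Among the genes within 0.5 log2 of the same level, the SD of Hspa1b was above that of 99.1% of 1340 genes and that of Hspa1a above 96.8% of 1204. Hsph1 stood at 86.9% of 1789 genes, whereas Hspe1 stood at 22.9% of 284, Hspd1 at 49.7% of 942 and Dnajb1 at 54.8% of 1369. These percentiles are a description with no test.

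**Figure D2:**
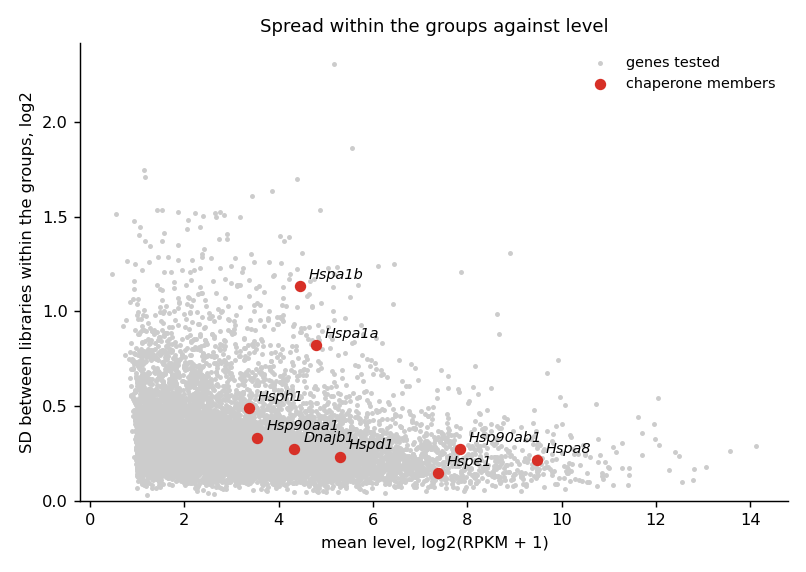
SD between libraries within the groups (vertical axis, log2 scale) against mean level, log2(RPKM + 1), for the 9594 genes tested (grey) and the 9 chaperone genes (red). Hspa1b, at an SD of 1.13, and Hspa1a, at 0.82, lie above most genes of their level, and Hspe1, at 0.15, lies low.

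Within the pair, Hspa1a was 1.29, 1.62, 1.03 and 0.819 times Hspa1b in PBS replicates 5 to 8 and 1.19, 2.01 and 1.45 times in MC-21 replicates 2 to 4. The ratio was below 1 only in PBS replicate 8, and the groups overlapped. The coding sequences are alike: 82.3% of the 50-base words in the coding sequence of Hspa1a also occur in Hspa1b. In the 3′ UTR, from which most reads of 3′ libraries come, and in the last 500 bases, 0% of the words were shared. How reads that fit both genes were counted is not given in the sources used here, and the part of the level of each gene that rests on such reads was not tested.

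Hspa8 varied less. It was at 602, 535, 789 and 764 RPKM in PBS replicates 5 to 8 and at 730, 775 and 809 RPKM in MC-21 replicates 2 to 4. The lowest value was again that of PBS replicate 6, and the highest was 1.51 times the lowest. Hspa1b amounted to 1.60% to 7.52% of Hspa8 in PBS neutrophils and to 1.37% to 4.98% in MC-21 neutrophils, so that the constitutive gene was by far the more abundant of these cytosolic HSP70 genes in every library.

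Hsph1 and Dnajb1 encode partners of HSP70. HSP110, the product of Hsph1, exchanges its nucleotide, and DNAJB1, a J-domain protein also known as HSP40, delivers clients and starts ATP hydrolysis. Hsph1 was at 7.07, 5.35, 14.4 and 11.7 RPKM in PBS replicates 5 to 8 and at 10.3, 7.77 and 12.0 RPKM in MC-21 replicates 2 to 4. As for Hspa1a and Hspa1b, PBS replicate 7 was highest and PBS replicate 6 lowest. Dnajb1 was at 16.6, 14.2, 22.7 and 20.7 RPKM in PBS neutrophils and at 25.0, 17.9 and 18.6 RPKM in MC-21 neutrophils. Its lowest value was also in PBS replicate 6, whereas MC-21 replicate 2 was highest.

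The HSP90 genes encode the inducible HSP90α (Hsp90aa1) and the constitutive HSP90β (Hsp90ab1). Hsp90aa1 was at 9.39, 11.3, 10.03 and 9.74 RPKM in PBS replicates 5 to 8 and at 17.7, 8.38 and 10.5 RPKM in MC-21 replicates 2 to 4. The 7 values lay close together except for MC-21 replicate 2. Hsp90ab1 was at 203, 217, 258 and 319 RPKM in PBS neutrophils and at 252, 196 and 180 RPKM in MC-21 neutrophils, highest in PBS replicate 8 and lowest in MC-21 replicate 4. Hsp90aa1 amounted to 4.62%, 5.19%, 3.89% and 3.06% of Hsp90ab1 in PBS replicates 5 to 8 and to 7.01%, 4.26% and 5.81% in MC-21 replicates 2 to 4. The groups overlapped in this ratio, and the β gene was at least 14.3 times the α gene in every library.

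Hspd1 and Hspe1 encode HSP60 and HSP10, the chamber and the lid of the chaperonin of the mitochondrial matrix. Hspd1 was at 33.7, 39.7, 45.6 and 40.5 RPKM in PBS replicates 5 to 8 and at 46.8, 31.8 and 33.0 RPKM in MC-21 replicates 2 to 4. Hspe1 was at 177, 184, 173 and 168 RPKM in PBS neutrophils and at 182, 144 and 136 RPKM in MC-21 neutrophils. MC-21 replicates 3 and 4 were the lowest of the 7 libraries in both genes, and MC-21 replicate 2 was the highest in Hspd1 and among the highest in Hspe1. Hspd1 amounted to 19.1% to 26.3% of Hspe1 in PBS neutrophils and to 22.1% to 25.7% in MC-21 neutrophils, the tightest of the 4 ratios. These percentages are of RPKM, which divides by transcript length, 2423 bases for Hspd1 and 774 bases for Hspe1. In reads the pair lay closer together. Hspd1 and Hspe1 had about 226 and 378 reads in PBS replicate 5 and about 294 and 357 in PBS replicate 7. Hspe1 has 4 pseudogenes in the annotation, with which reads could be shared.

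**Figure D3:**
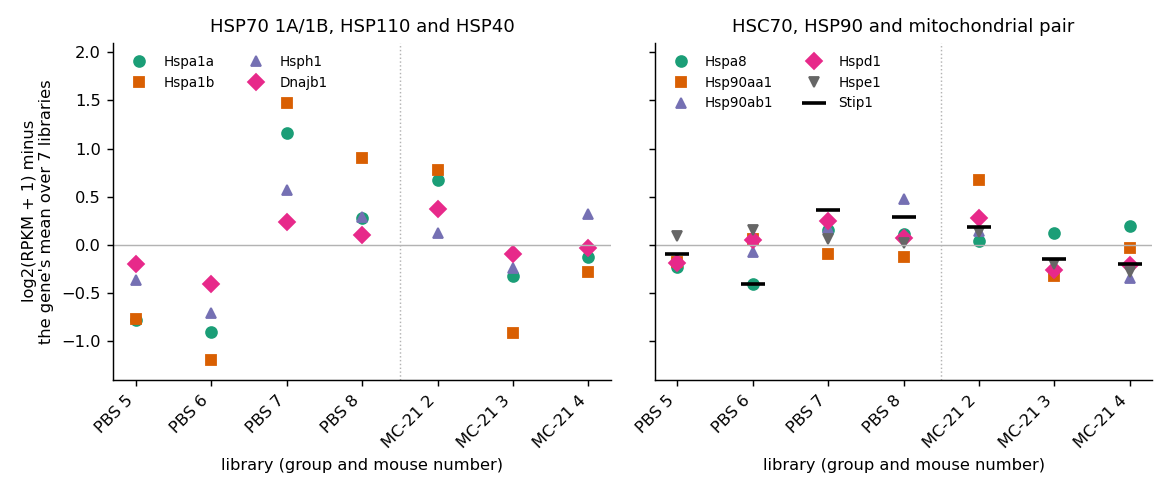
Level of each gene in each library as log2(RPKM + 1) minus its mean over the 7 libraries (vertical axis), for Hspa1a, Hspa1b, Hsph1 and Dnajb1 (left) and for Hspa8, Hsp90aa1, Hsp90ab1, Hspd1, Hspe1 and the cochaperone Stip1 (right). The dotted line separates PBS from MC-21 libraries, and PBS replicate 6 is lowest in all 4 genes of the left panel.

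The order of the libraries was alike in several of the 9 genes. PBS replicate 6 had the lowest level of 5 of the 9 (Hspa1a, Hspa1b, Hspa8, Hsph1 and Dnajb1), although it had the highest level of Hspe1. PBS replicate 7 and MC-21 replicate 2 each were among the 3 highest libraries for 7 of the 9 genes, and PBS replicate 8 for 6. Averaged over the 9 genes, the centred level was -0.31, -0.38, 0.44 and 0.24 on the log2 scale in PBS replicates 5 to 8 and 0.36, -0.27 and -0.09 in MC-21 replicates 2 to 4. High and low libraries thus occurred in both groups. As for depth, 1 RPKM of a transcript of 1 kb stood for 2.77, 3.33, 2.66 and 3.96 reads in PBS replicates 5 to 8 and for 3.56, 1.59 and 2.77 reads in MC-21 replicates 2 to 4. The summed level of 18 immediate early genes, which respond to handling and activation, was 9875, 10116, 10548 and 8696 RPKM in PBS and 10677, 9074 and 9627 RPKM in MC-21 libraries. Summed markers of hepatocytes were highest in PBS replicate 6, at 749 RPKM against 356 to 566 RPKM in the other 6 libraries. The part of these measures in the levels of the chaperones was not tested.

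Genes outside the 9 with the most similar pattern were ranked by the root mean square difference of their centred profile, over 7 libraries and among 5851 genes whose mean reached 5 RPKM. Ifnlr1 came closest to the mean profile of the 9 genes, with a difference of 0.121 log2, followed by Stip1 with 0.126 and Cxxc1 with 0.161. Stip1 was at 45.1, 36.2, 62.3 and 59.5 RPKM in PBS replicates 5 to 8 and at 55.3, 43.7 and 42.2 RPKM in MC-21 replicates 2 to 4, and PBS replicates 6 and 7 were its lowest and highest libraries. The genes closest to Hspa1b, the most variable of the 9, were Thrsp with a difference of 0.468, Prmt1 with 0.618 and Cidea with 0.644. Hspa1a differed from Hspa1b by 0.370 on the same measure.

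The design asks whether neutrophils of livers without infiltrating Ly6Chi monocytes differ from those of livers with them. None of the 9 chaperone genes passed the test for a difference between the groups. By limma with Benjamini-Hochberg adjustment over the 9594 genes tested, 0 of the 9 had an adjusted p under 0.05, where 60 genes (0.625%) did, 0.198% higher and 0.427% lower in MC-21 neutrophils. At an unadjusted p under 0.05, 0 of the 9 passed, where 14.7% of all genes did, and with at least a 2-fold change besides, 0 of the 9 passed, where 2.7% of all genes did. The groups overlapped in 9 of the 9, where 13.3% of all genes had groups that do not overlap, 10.2% lower and 3.1% higher in MC-21 neutrophils. The log2 fold change was above 0 in 5 of the 9 and below 0 in 4, where 30.6% of all genes were above 0, and its median was 0.12 for the 9 genes and -0.15 for all genes tested. Both sides of this contrast moved with the processing. The share of all genes below 0 was 69.4%, against 51.3% with quantile normalization and 47.3% with median centring. With quantile normalization the median was 0.18 for the 9 genes and -0.0081 for all genes. With median centring it was 0.29 for the 9 genes and 0.018 for all genes. Without MC-21 replicate 2 the log2 fold change was above 0 in 2 of the 9 genes. Their median was then -0.160, where that of all genes was -0.156.

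The intervals say which differences these values do not exclude. The mean level of Hspa8 was 673 ± 124 RPKM (SD, n = 4) in the PBS group and 771 ± 39.6 RPKM (SD, n = 3) in the MC-21 group. The log2 fold change was 0.21 ± 0.16 (SE), with a limma adjusted p of 0.565. Its fold of MC-21 over PBS had a 95% confidence interval of 0.908 to 1.48. Hspe1 was 175 ± 6.90 and 154 ± 24.6 RPKM, with a log2 fold change of -0.20 ± 0.14 and the smallest adjusted p of the 9, 0.550, and an interval of the fold from 0.704 to 1.08. For Hsp90ab1, Hspd1, Dnajb1, Hsp90aa1 and Hsph1 the intervals of the fold were 0.632 to 1.13, 0.699 to 1.23, 0.805 to 1.52, 0.790 to 1.64 and 0.673 to 1.76. A 2-fold difference in either direction lies outside all of these intervals, which come from limma with all 7 libraries. For Hsph1 the log2 fold change was 0.28 ± 0.35 (SE) without MC-21 replicate 3, so that a 2-fold rise of Hsph1 is not firmly excluded. The inducible pair was measured less closely. Hspa1a was 30.7 ± 22.0 RPKM in PBS and 29.7 ± 12.0 RPKM in MC-21 neutrophils, with a log2 fold change of 0.14 ± 0.48, a limma adjusted p of 0.917 and an interval of the fold from 0.524 to 2.31. Hspa1b was 29.9 ± 24.2 and 21.3 ± 13.4 RPKM, with -0.24 ± 0.64, a limma adjusted p of 0.888 and an interval from 0.310 to 2.30. A change by 2-fold upward in either, or downward in Hspa1b, lies inside these intervals and is not excluded. A 2-fold fall of Hspa1a lies only just outside its interval and is not firmly excluded either. That interval draws the wide spread of Hspa1a toward that of genes of like level. Without MC-21 replicate 2 the log2 fold change of Hspa1a was -0.16 ± 0.52 (SE). The sign of the log2 fold change of Hspa1a, Hspa1b, Hsph1, Hsp90aa1 and Dnajb1 turned when single libraries were left out. Two-sided exact permutation tests over the 35 assignments of the 7 mice to groups of 4 and 3, which cannot give a p below 0.0286, gave unadjusted p-values from 0.171 (Hspe1) to 0.8 (Hspa1a and Hspa1b). Fold changes are on the log2(RPKM + 1) scale.

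**Figure D4:**
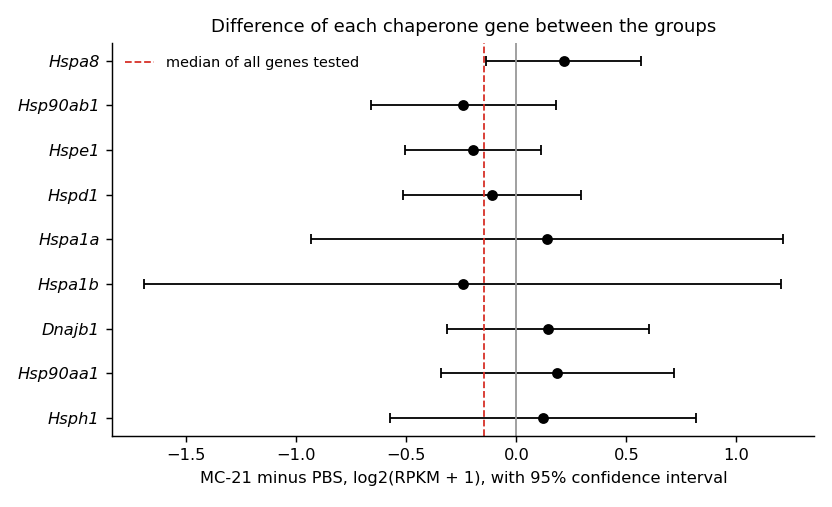
Difference of MC-21 minus PBS neutrophils (horizontal axis, log2(RPKM + 1)) for each of the 9 genes, with bars for the 95% confidence interval from limma. All 9 intervals include 0, and the dashed line marks the median of all genes tested, -0.15.

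Other genes of the folding machinery were read from 7 lists, with 94 genes tested. Of these, 0 had a limma adjusted p under 0.05 and 8 (8.51%) had an unadjusted p under 0.05, against 14.7% of all genes. The groups did not overlap in 11 (11.7%), against 13.3% of all genes. The log2 fold change was below 0 in 69 of the 94 (73.4%), where 69.4% of all genes were below 0, and its median was -0.17.

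Among 16 cochaperones of HSP90, Stip1, the adaptor that joins HSP70 to HSP90, had the highest mean over the 7 libraries, 49.2 RPKM. The highest log2 fold change was that of Fkbp5, an immunophilin that binds HSP90 in steroid receptor complexes and a known target of glucocorticoids. It was at 31.7, 22.3, 21.0 and 28.9 RPKM in PBS replicates 5 to 8 and at 47.2, 53.5 and 80.4 RPKM in MC-21 replicates 2 to 4. The groups did not overlap, with a log2 fold change of 1.17 ± 0.22 (SE) and a limma adjusted p of 0.0572, which does not pass the threshold. The limma adjusted p was 0.0482 for genes whose mean reached 5 RPKM, 0.0428 with median centring and 0.00704 in a fit that also held principal component 2 of the libraries, chosen after the data were seen. It passed in these 3 of 16 alternatives, was between 0.0710 and 0.171 when 1 library was left out, and was at most 0.321 over all 16, tests other than limma included. The lowest value of this list was Cacybp at -0.54, with libraries between 2.97 and 20.0 RPKM.

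Among 17 chaperones of the endoplasmic reticulum (ER), Dnajb9, a J-domain partner of BiP, had the highest log2 fold change. It was at 15.5, 23.2, 17.3 and 12.3 RPKM in PBS replicates 5 to 8 and at 33.3, 33.0 and 33.7 RPKM in MC-21 replicates 2 to 4. The groups did not overlap, with a log2 fold change of 0.96 ± 0.20 (SE) and a limma adjusted p of 0.0760, and it passed in 1 of 16 alternatives (0.0318 without PBS replicate 6), with a highest adjusted p of 0.247 over all 16, tests other than limma included. Hspa5, which encodes BiP itself and was singled out after its values were seen, was at 13.3, 63.9, 70.0 and 25.5 RPKM in PBS and at 84.3, 18.3 and 23.1 RPKM in MC-21 neutrophils. PBS replicate 6, the lowest library for Hspa1b, was thus among the highest for Hspa5. The lowest log2 fold change of the ER list was that of the disulfide isomerase Pdia3, -0.32.

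In the other 5 lists, 0 genes had an adjusted p under 0.05 by limma. Among 12 other HSP70 genes and exchange factors, the log2 fold change ranged from -0.80 for Hspa12a, a distant relative of HSP70 (adjusted p = 0.211 by limma), to 0.28 for Hspa12b. The 16 J-domain genes ranged from -0.46 for Dnajc13 to 0.14 for Dnajc5, and the 14 subunits of the cytosolic chaperonin TRiC and of prefoldin from -0.49 for Cct6a to 0.23 for Pfdn4. The 14 mitochondrial chaperones and proteases ranged from -0.58 for Hspa9, the HSP70 of the matrix, to 0.33 for Yme1l1. The 5 small heat shock genes tested ranged from -0.33 for Cryab to 0.24 for Hspb6.

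Of the factors that control the response, Hsf1 was at 16.5, 21.0, 24.2 and 24.3 RPKM in PBS replicates 5 to 8 and at 15.0, 16.5 and 15.5 RPKM in MC-21 replicates 2 to 4. Its log2 fold change was -0.42 ± 0.17 (SE), with an adjusted p of 0.319 by limma, and the groups overlapped by PBS replicate 5. Hsf2 lay between 0.577 and 1.29 RPKM, with a mean of 0.990 RPKM, and was not tested. Hsbp1, a small binding partner of HSF1, had a log2 fold change of 0.07. Among the 18 immediate early genes, 0 had a limma adjusted p under 0.05, 3 (16.7%) passed unadjusted, against 14.7% of all genes, and the values ranged from -0.52 for Atf3 to 0.76 for Egr2.

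All 12 neutrophil markers were detected, led by S100a9, with a summed level of 18621 to 31720 RPKM in PBS and 28541 to 42164 RPKM in MC-21 neutrophils. Markers of monocytes and macrophages were lower in MC-21 neutrophils in 5 of 12 genes tested, where 0.427% of all genes were (C1qa, C1qb, C1qc, Ccr2 and F13a1; limma adjusted p under 0.05), with a summed level of 535 to 649 RPKM in PBS and 263 to 345 RPKM in MC-21 neutrophils. These calls depended on the processing: 1 of the 12 was called with no filter on low values (C1qb), and when 1 library was left out 1 to 5 were, with 1 (C1qb) without PBS replicate 7 or PBS replicate 8, 2 without MC-21 replicate 2 or MC-21 replicate 4, and 3 without MC-21 replicate 3. Cd68 had the highest mean of the list over the 7 libraries, and Ccr2 was listed at 0 in MC-21 replicate 3. Summed markers, each list with the gene of the highest mean over the 7 libraries, were 56.7 to 85.0 and 34.97 to 65.3 RPKM for Kupffer cells (Marco), 1719 to 3432 and 1740 to 2800 RPKM for endothelium (Clec4g), 356 to 749 and 363 to 566 RPKM for hepatocytes (Apoa1), 21.2 to 42.6 and 13.6 to 17.5 RPKM for lymphoid cells (Cd79b), and 10.4 to 19.5 and 8.82 to 15.6 RPKM for eosinophils (Siglecf), in PBS and MC-21 neutrophils, with 0 genes called in these lists and in that of neutrophils. Their part in the levels of the 9 chaperone genes was not tested, and in bulk samples fewer cells of a type and less RNA per cell cannot be told apart.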

How the data were processed

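RNA-seq was performed on neutrophils of 4 PBS-treated and 3 MC-21-treated mice. Reads of the 3′ libraries (Illumina NextSeq) were mapped by the authors with HISAT 0.1.5 to the mm9 assembly, and the deposited RPKM values per gene came from Partek Genomics Suite 6.6 after a step with SAMtools. The transcript annotation and the treatment of reads with several positions are not given in the sources used here. The values were used as log2(RPKM + 1), without further scaling, for 9594 genes whose mean reached 1 RPKM.

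Differences (MC-21 minus PBS) were tested with limma 3.58.1 in R 4.3.3 (eBayes with a trend, Benjamini-Hochberg adjustment over all genes tested) whereas the study used a t-test, which is an alternative here. On simulated data for this comparison with 9594 genes, 188 of 200 genes changed by 2 on the log2 scale were recovered (94%), with 16 false calls. Single values also had an exact permutation test. P-values set the difference between the groups against the spread between these mice. In limma the spread of each gene is drawn toward that of genes of like level. Low RPKM values fall on multiples of 1 read, so that 1 RPKM of a 1 kb transcript stood for 1.59 to 3.96 reads, a depth at which 71.2% to 73.4% of low values per library came within 0.1 of a whole number of reads. Read numbers used the longest coding transcript and are approximate. Each of the 9 genes had at least 44 reads in every library.

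The members and the lists were chosen with earlier results of these data known. Named are the 9 genes, Hsf1, Hsf2, of each pathway list the genes with an adjusted p under 0.05 and the largest rise and fall, the 3 genes most similar in pattern to the mean of the 9 and to the most variable member, and of each marker list the most abundant gene and any gene a result turns on. Alternatives were a pseudocount of 0.1, no filter, a minimum mean of 5 RPKM, quantile normalization, median centring, no trend, t-tests, an unadjusted p under 0.05 with a 2-fold change, and leaving out each library. The second principal component as a covariate was added after the data were seen. Annotation and genome were those of mm9 (GENCODE vM1), and promoters came from RefSeq. Python 3.11.15 was used with scipy 1.17.1, pandas 2.3.3, matplotlib 3.10.9 and numpy 2.4.6.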

Additional observations from a re-analysis of the deposited data

How the results depend on the processing

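The number of chaperone members with an adjusted p under 0.05 was 0 under all 17 alternatives. Before adjustment, 1 member passed with median centring (Hspa8, limma adjusted p = 0.431) and 1 without MC-21 replicate 2 (Hspe1, limma adjusted p = 0.345), and 0 did under the other limma and t-test alternatives. Over all genes, 60 were called, against 6 with no filter, 4 by t-test on log2 values, 5 by t-test on RPKM, 152 with the second principal component, 259 by the unadjusted p with a 2-fold change, and 9 (without PBS replicate 8) to 102 (without PBS replicate 6) when 1 library was left out. The 60 were 19 higher and 41 lower, and with median centring 44 were higher and 30 lower, a scaling that moved the median of all genes from -0.15 to 0.02. Of the 94 other chaperone genes, 1 was called at a mean of at least 5 RPKM, with median centring and with the second principal component (Fkbp5 in each), and 0 to 1 when 1 library was left out (Dnajb9 without PBS replicate 6). Fkbp5 also passed the unadjusted p with a 2-fold change. Of the 12 monocyte and macrophage markers, 0 were called by t-test on log2 values or on RPKM. The median log2 fold change of the members was between -0.16 (without MC-21 replicate 2) and 0.21 when 1 library was left out, and 0.29 with median centring. The sign of a member turned for Hspa1a by t-test on RPKM (-0.046), and for Hspd1 with median centring (0.053). When 1 library was left out, Hspa1a ranged from -0.16 to 0.55, Hspa1b from -0.70 to 0.21, Hsp90aa1 from -0.10 to 0.40, Hsph1 from -0.10 to 0.33 and Dnajb1 from -0.00022 to 0.24. The sign turned without PBS replicate 5, PBS replicate 6 or MC-21 replicate 2 for Hspa1a, without PBS replicate 7, PBS replicate 8 or MC-21 replicate 3 for Hspa1b, without PBS replicate 6 or MC-21 replicate 4 for Hsph1, and without MC-21 replicate 2 for Hsp90aa1 and Dnajb1. Hspa8, Hsp90ab1 and Hspe1 kept their sign under every alternative. The cause of these differences was not tested. Ratios within a library do not depend on a constant factor per library, and were not recomputed with quantile normalization. No paired analysis was possible because the groups share no replicate number. With 3 and 4 mice and down to 44 reads per gene and library, small differences were not detectable.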
